A study of Mus musculus with 3 samples.

Results

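The spots described here were those of 3 sections of regenerating mouse muscle in which patrolling monocytes accounted for at least 2% of the transcripts, a fraction (theta) of 0.02 or more. They numbered 451 of the 2758 spots of the series, and are called member spots. They were chosen by the estimated theta of patrolling monocytes itself, so the level of that cell type in them is a description and not a finding. Each section's member spots were set against its own spots with a theta under 0.01, called comparison spots, of which there were 2071 in all. The 236 spots in between entered neither class. The series holds spatial RNA sequencing (Visium) of tibialis anterior muscles from C57BL/6J mice aged 5 months. All muscles were injected with notexin, a venom phospholipase that lyses myofibers, and collected 2, 5 or 7 days post-injury (dpi). No uninjured or vehicle-injected section was analysed here, and every section carried the same injury. One section was sequenced for each time point, so capture area, animal and time cannot be told apart and no difference was tested. Spots are small areas of tissue that pool transcripts from several cells, spots of a section are not replicates, and the 95% Clopper-Pearson intervals below cover the counting of spots only.

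Monocytes enter injured muscle from the blood and mature into macrophages, which clear necrotic fibers and then support the growth of muscle stem cells (MuSCs) and their fusion into new fibers. Patrolling monocytes are classically the subset that crawls along the vessel wall and expresses Cx3cr1 with little Ly6c, whereas inflammatory monocytes express Ly6c and are recruited early. The study used the name for cells high in Fabp5, which encodes a fatty acid binding protein, and negative for Cx3cr1 and Ly6c2, so its patrolling monocytes lack Cx3cr1, which marks the classical subset, but share its low Ly6c. Ctsa and Ctsl, which encode lysosomal proteases, were named as markers for these spots. Only summary values per spot were analysed here, so the label could not be checked against Ctsa, Ctsl or any other gene, and it rests on the deconvolution alone.

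At 2 dpi, patrolling monocyte theta lay, on the log10 scale, in a low and a high range with few spots in the middle. Over the 859 spots it ran from 0.00044 to 0.726 with a median of 0.00857. There were 446 spots under 0.01 and 241 spots of at least 0.1, but only 113 spots from 0.01 to under 0.05, which was 13.2% of the section. In steps of 0.2 on the log10 scale, the number of spots was highest, at 104, for theta of 0.00158 to 0.00251 and had a second high, at 75, for theta of 0.158 to 0.251. Between these it reached a low of 26 spots for theta of 0.0251 to 0.0398. The limit of 0.02 therefore lay close to the sparsest step between these highs. The low between them depends on the log10 scale, whose steps widen with theta. With theta rescaled without myonuclei, more spots lay from 0.01 to under 0.05, as given below.

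Member spots made up 364 of the 859 spots at 2 dpi, or 42.4% (39.0 to 45.8%). At 5 dpi they were 39 of 933 spots, or 4.18% (2.99 to 5.67%), and at 7 dpi 48 of 966, or 4.97% (3.69 to 6.53%). Spots of at least 0.1 made up 28.1% (25.1 to 31.2%) at 2 dpi, 0.429% (0.117 to 1.09%) at 5 dpi, where there were 4, and 0 of 966 at 7 dpi, which allows a share of up to 0.381%. The later sections had a single low range with a tail. The highest theta was 0.159 at 5 dpi and 0.0727 at 7 dpi, while 64 spots at 2 dpi reached 0.3. Member spots held 96.7% of all the patrolling monocyte theta of the 2 dpi section, but 30.7% at 5 dpi and 26.7% at 7 dpi, where most of the sum lay in spots under the limit.

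**Figure D1:**
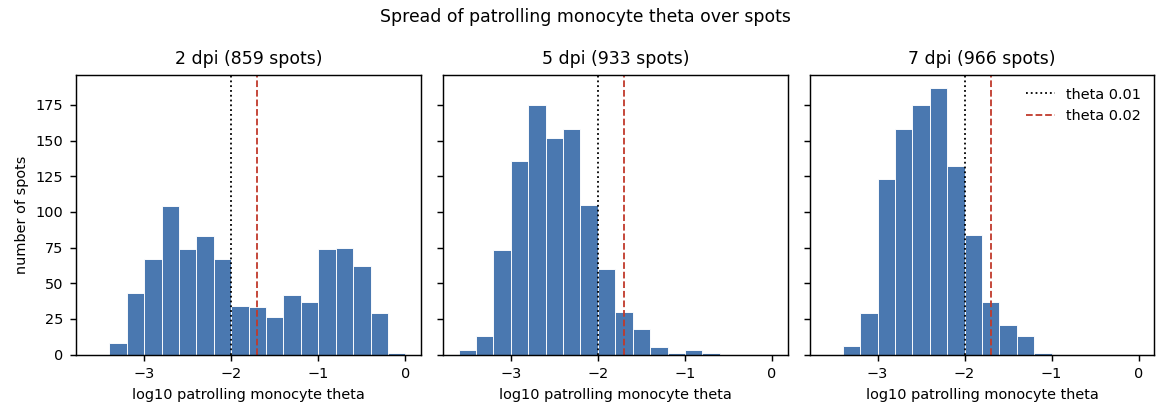
Number of spots (vertical axis) by log10 patrolling monocyte theta (horizontal axis, steps of 0.2) in each section, with the limits of 0.01 and 0.02 as lines. On this scale the 2 dpi section has a low and a high range of theta, with 113 spots from 0.01 to under 0.05. The 5 and 7 dpi sections have 1 range with a tail that ends at 0.159 and 0.0727.

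Spots on both sides of the limit differed little in theta. The lowest member spot had 0.0203, 0.0202 and 0.0204 at 2, 5 and 7 dpi, and the highest spot outside had 0.0199, 0.0197 and 0.0196. At 2 dpi the 29 spots of 0.02 to 0.03 had a mean summed myonuclei theta of 0.633 and a median of 25.8% mitochondrial transcripts, and the 49 spots of 0.01 to 0.02 had 0.702 and 28.9%. At 5 dpi the corresponding values were 0.449 and 10.3% in 18 spots and 0.524 and 11.8% in 79 spots. At 7 dpi they were 0.508 and 11.1% in 27 spots and 0.523 and 12.3% in 108 spots.

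Depth differed between the classes. At 2 dpi the median was 4267.5 unique molecular identifiers (UMIs) in member spots, with a range of 1003 to 21933, and 7715.5 in comparison spots, a ratio of 0.553. The ratio was 0.939 at 5 dpi, with medians of 10642 and 11333, and 1.19 at 7 dpi, with medians of 18034 and 15207. In spots of 5000 to 10000 UMIs, the member share at 2 dpi was 35.4%. The median number of genes was nearly equal at 2 dpi, with 1799.5 in member and 1734.5 in comparison spots, despite the lower depth of member spots. At 5 dpi it was 3185 and 2342, and at 7 dpi 4055.5 and 2917.5.

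Patrolling monocytes were a main constituent of member spots at 2 dpi but not later. Among the 364 member spots at 2 dpi, their theta was lowest at 0.0203, had a median of 0.147 and was highest at 0.726. They had the largest theta of all 27 cell types in 62 spots, or 17.0% (13.3 to 21.3%). Among the 25 types other than myonuclei they were the largest in 276 spots, or 75.8% (71.1 to 80.1%), and in 11 of 446 comparison spots, or 2.47%. In the remaining member spots of that section the leading type was most often fusing myocytes, in 31 spots, followed by Cxcl10+ monocytes in 13. Fusing myocytes thus led in 8.52% of member spots at 2 dpi, but in 16.8% of comparison spots. At 5 dpi the median theta of patrolling monocytes in member spots was 0.0308, and at 7 dpi 0.0289. They led the non-myonuclear types in 0 of 39 and 0 of 48 member spots, which allows shares of up to 9.03% and 7.40%. Fusing myocytes, which are differentiated progenitors about to join fibers, led in 38 of 39 member spots at 5 dpi and in 43 of 48 at 7 dpi. They also led in 69.7% of comparison spots at 5 dpi and in 63.5% at 7 dpi.

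The 6 monocyte and macrophage types together had mean theta values of 0.301, 0.148 and 0.113 in member spots of the 2, 5 and 7 dpi sections. In comparison spots these means were 0.0249, 0.0318 and 0.0389. The sums included the patrolling monocyte theta that chose the spots, with means of 0.178, 0.0431 and 0.0341 in member spots. In comparison spots patrolling monocytes had means of 0.00340, 0.00332 and 0.00375. The contrast between the classes, and the patrolling monocyte shares that follow, were therefore partly set by the choice of spots. Patrolling monocytes were 59.1% of this sum in 2 dpi member spots, 29.1% at 5 dpi and 30.1% at 7 dpi. In comparison spots they were 13.6%, 10.4% and 9.64%. The second type differed by section. At 2 dpi it was Cxcl10+ monocytes, which are marked by an interferon-induced chemokine, with 11.5% of the sum in member spots and 15.8% in comparison spots. At 5 and 7 dpi the largest type in member spots was the Cx3cr1-hi M2 macrophage, a subset of the macrophages linked to repair, with 35.4% and 35.9%, above the patrolling monocyte share. It was also the largest in comparison spots of those sections, with 35.6% and 38.2%. Within this family, patrolling monocytes were the largest type in 316 of 364 member spots at 2 dpi, in 19 of 39 at 5 dpi and in 21 of 48 at 7 dpi. In comparison spots they were the largest in 128 of 446, 187 of 815 and 161 of 810, or 28.7%, 22.9% and 19.9%. This contrast too was partly set by the choice of spots.

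**Figure D2:**
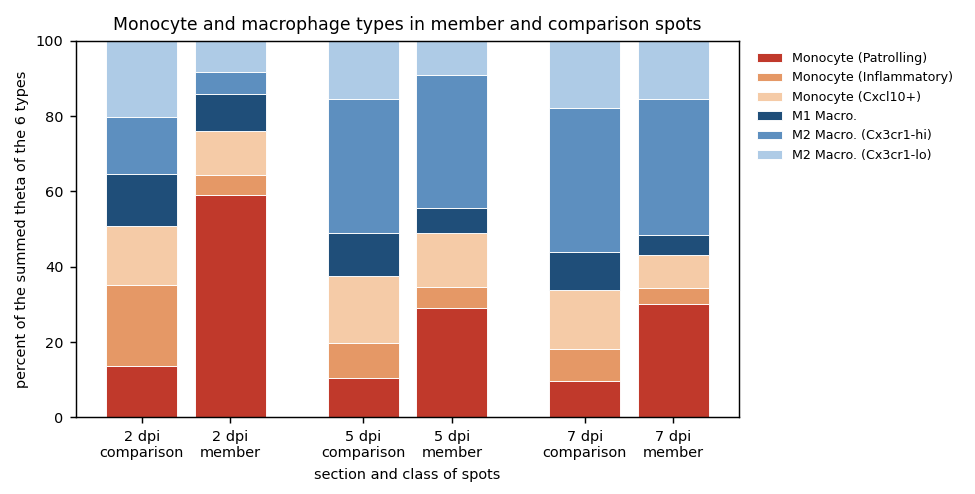
Percent of the summed theta of the 6 monocyte and macrophage types (vertical axis) taken by each type, in comparison and member spots of each section, from mean theta over spots. Patrolling monocytes, whose theta chose the spots, take 59.1% in 2 dpi member spots. Cx3cr1-hi M2 macrophages take 35.4% and 35.9% in 5 and 7 dpi member spots, against 35.6% and 38.2% in comparison spots.

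The next question was which other cell types shared the member spots at 2 dpi. All theta values of a spot sum to 1 and come from the estimate that chose the spots, so a ratio between classes describes the make-up of a spot and is not independent of the choice. Of the 26 other types, 17 had a mean theta at least 2-fold higher in member than in comparison spots, which was 65.4% of them, and 1 was at least 2-fold lower, or 3.85%. All 5 other monocyte and macrophage types were among the 17. Cxcl10+ monocytes had a theta of 0.00237 to 0.231 in member spots with a median of 0.022, against a median of 0.00218 in comparison spots, and the ratio of means was 8.77. M1 macrophages, the pro-inflammatory subset, had a range of 0.00195 to 0.199 and a median of 0.0214, against 0.00225, with a ratio of 8.59. These ratios were the highest of the section, and 302 and 309 of the 364 member spots had a theta of at least 0.01 for the respective type. In spots of that section with a summed myonuclei theta of 0.4 to 0.6, a range chosen after seeing the data that held 160 member but only 17 comparison spots, the ratio was 1.45 for Cxcl10+ monocytes and 3.499 for M1 macrophages.

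Over all member and comparison spots at 2 dpi, macrophages of the repair type and inflammatory monocytes were less unequal than Cxcl10+ monocytes and M1 macrophages. Cx3cr1-lo M2 macrophages had a mean of 0.0248 in member and 0.00505 in comparison spots, a ratio of 4.90, and Cx3cr1-hi M2 macrophages 0.0180 and 0.00374, a ratio of 4.82. With a summed myonuclei theta of 0.4 to 0.6 their ratios were 1.70 and 1.62, above the 1.45 of Cxcl10+ monocytes, so that order turned. Inflammatory monocytes, the Ly6c-expressing subset, had means of 0.0161 and 0.00534, a ratio of 3.02, which was 0.568 in the same myonuclei range. Their highest theta, 0.475, was in a comparison spot, whereas the highest in a member spot was 0.155. Dendritic cells, which present antigen, had means of 0.00888 and 0.00290, a ratio of 3.06, and 0.877 in that range.

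Myonuclei were the largest component in both classes and were lower in member spots. Type IIb myonuclei, those of the fastest fibers, had a theta of 0.0464 to 0.905 in member spots at 2 dpi with a median of 0.444, and of 0.132 to 0.971 in comparison spots with a median of 0.841. The ranges overlapped widely and the ratio of means was 0.544. Type IIx myonuclei, of another fast fiber type, had means of 0.0201 and 0.0807, a ratio of 0.249, and were the 1 type at least 2-fold lower. The 4 progenitor stages were all at least 2-fold higher. Activated MuSCs, which have left quiescence, had means of 0.0210 and 0.00447, a ratio of 4.70. Committed myoblasts, the next stage, had 0.0180 and 0.00445, a ratio of 4.04. Quiescent MuSCs had 0.0121 and 0.00476, a ratio of 2.55. Fusing myocytes had 0.0433 and 0.0172, a ratio of 2.52 by means and of 6.46 by medians, and ranged up to 0.331 in comparison spots. With a summed myonuclei theta of 0.4 to 0.6 their ratio was 0.503, so the direction turned, while activated MuSCs had 3.14 and committed myoblasts 2.43.

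Lymphocytes, stromal cells and vessel cells differed less evenly. The 3 lymphocyte types, which were T cells, B cells and NK cells, had ratios of 2.64 to 4.89. T cells were the highest of them, with means of 0.0129 and 0.00265, and NK cells had 0.0101 and 0.00251, a ratio of 4.02. Neutrophils, the first leukocytes to arrive after injury, had a ratio of 3.26 at a mean of only 0.00771 in member spots. Of the 4 stromal types, stem-like and pro-remodeling fibro-adipogenic progenitors (FAPs), which are matrix-producing stromal cells, had ratios of 3.29 and 2.53, the latter 0.710 in the myonuclei range above, and the others, adipogenic FAPs and tenocytes, had 1.37 and 0.885. Stem-like endothelial cells had a ratio of 2.61, and 0.706 in that range, while artery, capillary and vein endothelium and smooth muscle lay between 1.23 and 1.49. Neural cells had a ratio of 1.58. The lowest theta that a spot received for any type had a median 2.73 times as high in member as in comparison spots, and 2.04 times in spots of 5000 to 10000 UMIs. Ratios of this size among rare types were thus near that of the lowest estimates, whose part in them was not tested.

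Most of these ratios did not remain above 1 when both myonuclei types were left out and the other theta values of each spot were rescaled to a sum of 1. The mean summed myonuclei theta was 0.447 in member and 0.865 in comparison spots at 2 dpi, so the other types together filled a larger part of a member spot. After rescaling, 8 of the 24 remaining types had a ratio above 1 and 2 were at least 2-fold higher, or 8.33%. These were Cxcl10+ monocytes with 2.22 and M1 macrophages with 2.03. Cx3cr1-lo and Cx3cr1-hi M2 macrophages had 1.24 and 1.12, activated MuSCs 1.15, T cells 1.12, inflammatory monocytes 1.014 and NK cells 1.001. The other 3 progenitor stages were below 1, with 0.930 for committed myoblasts, 0.879 for fusing myocytes and 0.658 for quiescent MuSCs. There were 7 types at least 2-fold lower, or 29.2%, and they were adipogenic FAPs, tenocytes, neural cells, smooth muscle and the artery, capillary and vein endothelium, at 0.273 to 0.386. The rescaled ratios of the rare types also rest on the small non-myonuclear remainder of comparison spots. The rescaled sum also kept the patrolling monocytes that chose the spots, at a mean of 0.295 in member and 0.0314 in comparison spots. This lowers the rescaled ratios of the other types by construction. A rescaled ratio below 1 is therefore not by itself a depletion.

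**Figure D3:**
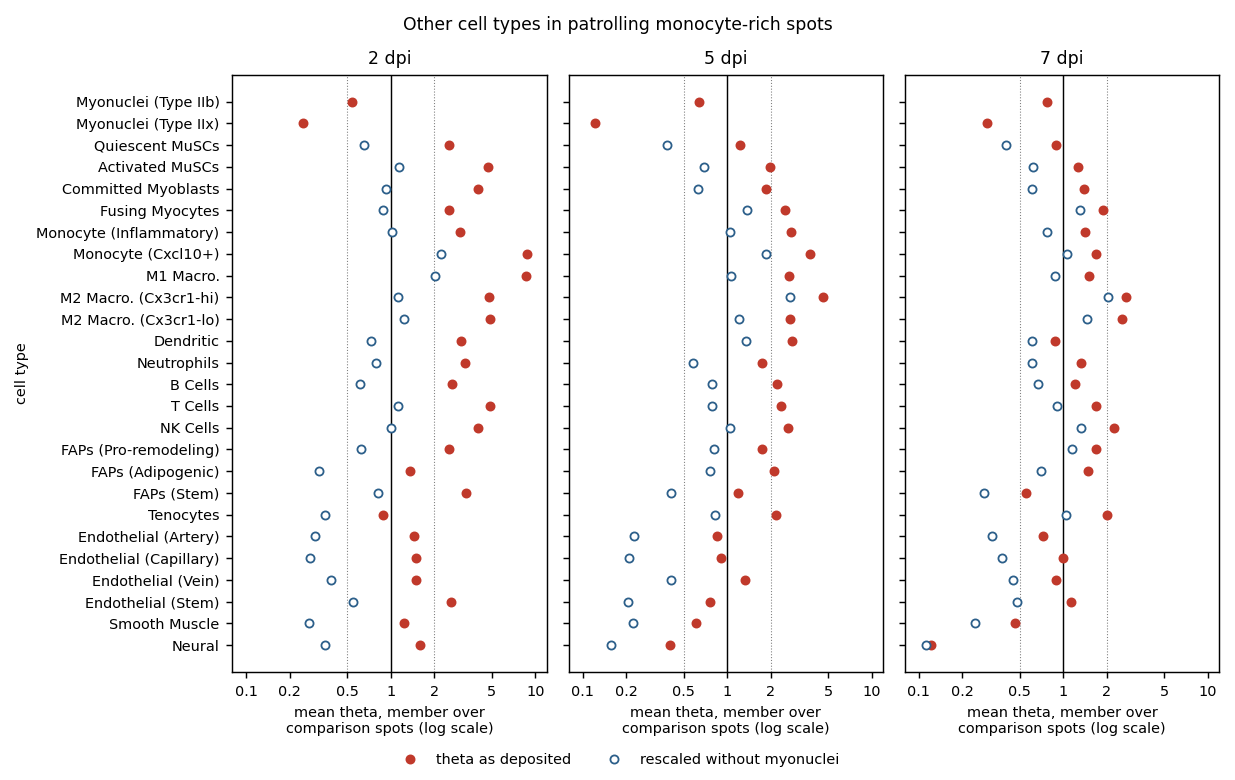
Ratio of mean theta in member over comparison spots (horizontal axis, log scale, dotted lines at 0.5 and 2) for each of the 26 other cell types in each section. Filled points use theta as deposited and open points use theta rescaled without the 2 myonuclei types, with patrolling monocytes kept in the sum. At 2 dpi Cxcl10+ monocytes and M1 macrophages lie at 2 or above on both scales. Vessel types lie below 1 after rescaling in all 3 sections.

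The make-up of 2 dpi spots was then followed over bands of patrolling monocyte theta. The mean summed myonuclei theta was 0.865 in spots under 0.01, 0.702 from 0.01 to 0.02, 0.593 from 0.02 to 0.05, 0.547 from 0.05 to 0.1, 0.479 from 0.1 to 0.2 and 0.296 in the 126 spots of at least 0.2. Other types did not follow the patrolling monocytes in this way once inside the member range. Summed progenitor theta was 0.0309 under 0.01 and 0.0869 from 0.01 to 0.02, and then lay between 0.0887 and 0.0983 in the 4 member bands. M1 macrophages had means of 0.0121, 0.0274, 0.0334, 0.0308 and 0.0280 from the 0.01 to 0.02 band upward, with no steady order among member bands. Cxcl10+ monocytes were at 0.0310, 0.0310, 0.0290 and 0.0434 in the 4 member bands, so that the top band was the highest. Stem-like endothelial cells were ordered through all bands, at 0.00463, 0.00745, 0.00879, 0.0109, 0.0113 and 0.0150. The bands fixed the room left for other types, since the values of a spot sum to 1.

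**Figure D4:**
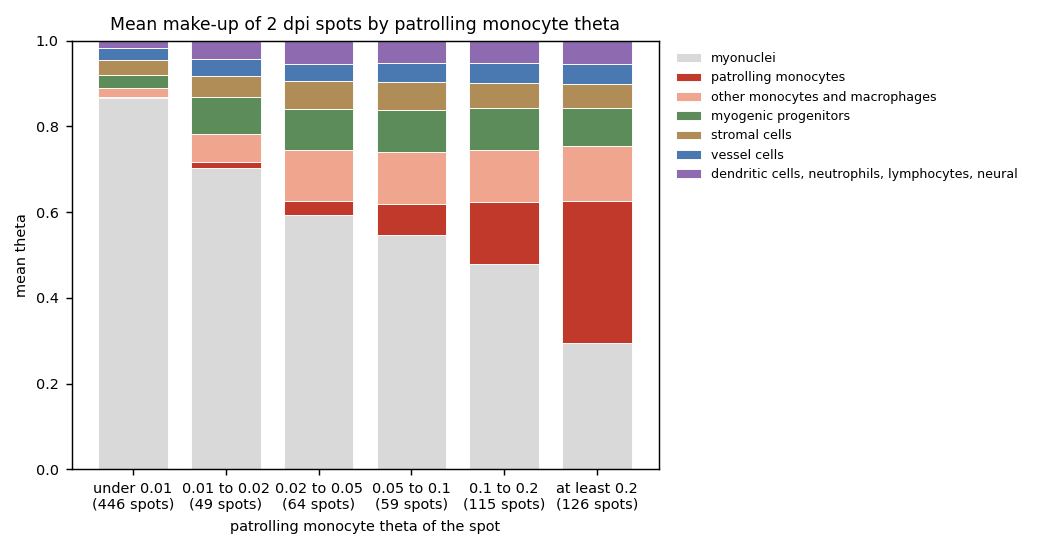
Mean theta (vertical axis) of groups of cell types in 2 dpi spots, by band of patrolling monocyte theta (horizontal axis, with the number of spots). Summed myonuclei theta is 0.865 in the lowest band and 0.296 in the highest, while myogenic progenitors stay between 0.0887 and 0.0983 in the 4 bands from 0.02 upward.

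Restricting the member class to the 241 spots of at least 0.1 at 2 dpi gave similar ratios to comparison spots. Cxcl10+ monocytes had 9.25, M1 macrophages 8.50, Cx3cr1-hi M2 macrophages 4.95, activated MuSCs 4.54 and fusing myocytes 2.52. Type IIb and IIx myonuclei had 0.470 and 0.177. After rescaling, Cxcl10+ monocytes had 2.09 and M1 macrophages 1.79, and activated MuSCs had 0.982. The rescaled sum of these spots held patrolling monocytes at a mean of 0.381. Patrolling monocytes led the non-myonuclear types in 228 of these 241 spots, or 94.6% (91.0 to 97.1%). The spot with the highest theta of the series, 0.726, had 21933 UMIs, the most of any spot in its section, 5117 genes and 5.98% mitochondrial transcripts. Its type IIb myonuclei theta was 0.0849 and its next type was fusing myocytes at 0.0340.

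Within the 364 member spots at 2 dpi, the ranks of patrolling monocyte theta went with few other types. Spearman's rho over spots, given as a description since the spots share a library and their theta values sum to 1, was -0.69 with type IIb myonuclei, 0.27 with stem-like endothelial cells, 0.19 with Cxcl10+ monocytes and -0.15 with activated MuSCs. Over all 859 spots of the section, which span both ranges of theta, it was -0.76, 0.67, 0.85 and 0.77 for the same types. Of these, only the value with type IIb myonuclei was of similar size inside the member class.

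At 5 dpi the 39 member spots had a higher mean theta of fusing myocytes and Cx3cr1-hi M2 macrophages than comparison spots, but not where the summed myonuclei theta was alike. In the 14 member and 118 comparison spots with a sum of 0.4 to 0.6, the ratio was 1.013 for fusing myocytes and 0.852 for Cx3cr1-hi M2 macrophages. Of the 26 other types, 12 were at least 2-fold higher in member spots, or 46.2%, and 2 at least 2-fold lower, or 7.69%. Cx3cr1-hi M2 macrophages had a theta of 0.00440 to 0.239 in member spots with a median of 0.0213, against a median of 0.00267 in comparison spots, and the ratio of means was 4.63. Their upper quartile in member spots was 0.0882, above the mean of 0.0524. Cxcl10+ monocytes had means of 0.0215 and 0.00569, a ratio of 3.77. The other types of this family were close to each other, with ratios of 2.78 for inflammatory monocytes, 2.70 for Cx3cr1-lo M2 macrophages and 2.69 for M1 macrophages. Dendritic cells had a ratio of 2.81 by means, 2.17 by medians and 0.696 in that myonuclei range, and 1 of the 4 spots with the highest patrolling monocyte theta had a dendritic theta of 0.133.

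Fusing myocytes had a theta of 0.0561 to 0.425 in 5 dpi member spots with a median of 0.254, and of 0.00102 to 0.492 in comparison spots with a median of 0.0550. The means were 0.249 and 0.0996, a ratio of 2.499. The earlier stages were less unequal, with 1.99 for activated MuSCs, 1.86 for committed myoblasts and 1.23 for quiescent MuSCs. Type IIb myonuclei had means of 0.401 and 0.625, a ratio of 0.641, and type IIx myonuclei 0.0154 and 0.127, a ratio of 0.121. Adipogenic FAPs and tenocytes, which make tendon matrix, had ratios of 2.10 and 2.19, and the tenocyte ratio was 1.17 in spots of 5000 to 10000 UMIs, of which 13 were member spots, and 0.742 in the myonuclei range. After rescaling without myonuclei, 8 types had a ratio above 1 and 1 of 24 was at least 2-fold higher, or 4.17%, which was the Cx3cr1-hi M2 macrophage with 2.71. Cxcl10+ monocytes had 1.86 and fusing myocytes 1.37, and 8 types were at least 2-fold lower, or 33.3%. These were all 5 vessel types, neural cells, stem-like FAPs and quiescent MuSCs. Patrolling monocytes, kept in this sum, had rescaled means of 0.0768 in member and 0.0167 in comparison spots.

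At 7 dpi the 48 member spots differed least from the comparison spots of their section. Only 3 of the 26 other types were at least 2-fold higher in them, or 11.5%, and 3 were at least 2-fold lower, also 11.5%. Cx3cr1-hi M2 macrophages had a theta of 0.00591 to 0.134 in member spots with a median of 0.0318, against 0.00456 in comparison spots, and the ratio of means was 2.73. Cx3cr1-lo M2 macrophages had means of 0.0175 and 0.00691, a ratio of 2.54. NK cells, the third of them, had a ratio of 2.23 by means and 1.85 by medians. The remaining monocyte and macrophage types had ratios of 1.67 for Cxcl10+ monocytes, 1.503 for M1 macrophages and 1.40 for inflammatory monocytes. Dendritic cells had 0.879. In the 23 member and 172 comparison spots with a summed myonuclei theta of 0.4 to 0.6, Cx3cr1-lo M2 macrophages had 1.81, Cx3cr1-hi M2 macrophages 1.07 and fusing myocytes 0.952.

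Fusing myocytes at 7 dpi had a theta of 0.0261 to 0.386 in member spots with a median of 0.203, against a median of 0.0700, and a ratio of means of 1.88. The other stages were at 1.38 for committed myoblasts, 1.26 for activated MuSCs and 0.885 for quiescent MuSCs. Type IIb myonuclei had means of 0.454 and 0.592, a ratio of 0.767, and type IIx myonuclei 0.0291 and 0.0991, a ratio of 0.293. Neural cells had means of 0.00167 and 0.0138, a ratio of 0.120. Their median ratio was 0.580, and their theta reached 0.680 in a comparison spot but no more than 0.00786 in a member spot. Smooth muscle, the last of the lower types, had a ratio of 0.464 and reached 0.488 in a comparison spot. After rescaling, 7 types had a ratio above 1 and 1 of 24 was at least 2-fold higher, or 4.17%, again the Cx3cr1-hi M2 macrophage, with 2.03. Of the others, 8 were at least 2-fold lower, or 33.3%, and all 5 vessel types were among them. Patrolling monocytes, kept in this sum, had rescaled means of 0.0691 in member and 0.0153 in comparison spots.

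By the study's methods, mitochondrial and ribosomal protein genes were outside the gene list of the deconvolution. If the deposited theta values used that list, these are measures that the choice of spots did not use, although they come from the same spots. Member spots had fewer mitochondrial and more ribosomal protein transcripts in all 3 sections. At 2 dpi mitochondrial transcripts were 4.13 to 51.8% of UMIs in member spots with a median of 13.9%, and 10.3 to 72.2% in comparison spots with a median of 34.7%. The ranges overlapped, but 355 of 364 member spots lay under the comparison median. At 5 dpi the medians were 9.84% and 26.8%, with 38 of 39 member spots under the comparison median, and at 7 dpi 10.6% and 18.8%, with 43 of 48. Ribosomal protein transcripts at 2 dpi were 3.85 to 16.6% in member spots with a median of 8.47%, and 1.77 to 10.7% in comparison spots with a median of 4.16%. Of the member spots, 362 lay above the comparison median. The medians were 13.0% and 5.92% at 5 dpi, with all 39 member spots above, and 11.1% and 7.18% at 7 dpi, with 47 of 48 above.

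The mitochondrial percentage tended to be higher, and the ribosomal protein percentage lower, in spots with a higher summed myonuclei theta. The classes were closer when this sum was held in a narrow range, least so at 2 dpi. In spots with a summed myonuclei theta of 0.4 to 0.6, the median mitochondrial percentage was 15.0% in 160 member and 23.0% in 17 comparison spots at 2 dpi, a difference of -8.01 percentage points in place of -20.9. At 5 dpi it was 10.9% and 11.2%, and at 7 dpi 10.7% and 12.1%, differences of -0.368 and -1.42 points in place of -16.9 and -8.24. The ribosomal protein difference was 1.35, 0.804 and 0.665 points in place of 4.31, 7.09 and 3.89. At 2 dpi, 148 of these 160 member spots still lay under the comparison median for mitochondrial transcripts. For ribosomal protein transcripts, 138 of them lay above it. Since the mitochondrial and ribosomal shares are parts of the same total, ribosomal protein transcripts were also taken as a percentage of the non-mitochondrial UMIs. The medians were then 10.00% and 6.48% at 2 dpi, 14.4% and 8.26% at 5 dpi, and 12.5% and 8.96% at 7 dpi, so the higher share in member spots remained. With a summed myonuclei theta of 0.4 to 0.6 they were 9.68% and 9.01%, 12.7% and 11.9%, and 12.02% and 11.5%, and the classes were again close. In spots of 5000 to 10000 UMIs the mitochondrial difference was -21.3, -15.2 and -10.2 points at 2, 5 and 7 dpi, close to that of all spots.

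**Figure D5:**
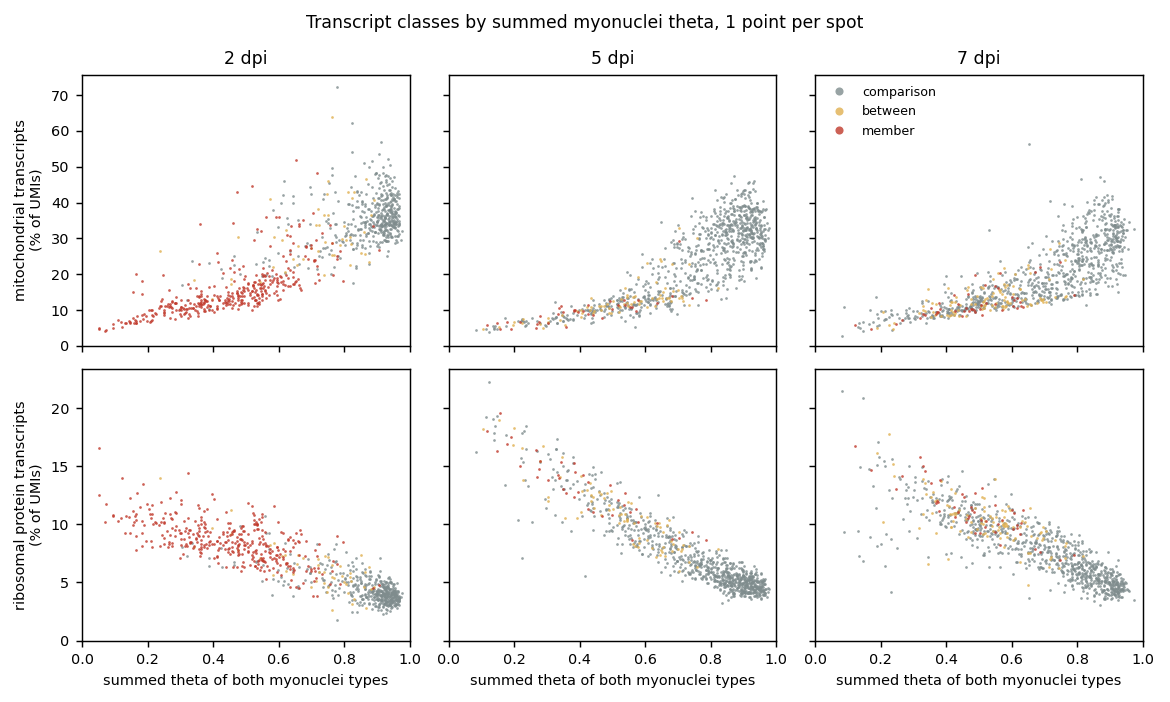
Percent of UMIs from mitochondrial (top) and ribosomal protein genes (bottom) against the summed theta of both myonuclei types, with 1 point per spot, in member, comparison and in-between spots of each section. Mitochondrial percentages tend to rise and ribosomal protein percentages to fall along the horizontal axis. At 2 dpi the member spots with sums of 0.4 to 0.6 have a median of 15.0% mitochondrial transcripts against 23.0% in the 17 comparison spots of that range.

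Without mitochondrial transcripts, the ratios of median UMIs between member and comparison spots were 0.738, 1.16 and 1.36 in the 2, 5 and 7 dpi sections. Member spots at 2 dpi were thus shallower on both counts. More types reached a theta of 0.01 in member spots, a count that includes patrolling monocytes by the choice of spots. The median number of such types at 2 dpi was 14 in member and 3 in comparison spots. It was 9 and 5 at 5 dpi, and 8 and 6 at 7 dpi. With a summed myonuclei theta of 0.4 to 0.6 it was 15 and 11, 9 and 7, and 9 and 7 at 2, 5 and 7 dpi. Hemoglobin transcripts, which mark red blood cells, were 0.0281% of the pooled UMIs of member spots and 0.0277% of those of comparison spots at 2 dpi. At 5 dpi they were 0.0949% and 0.129%, and at 7 dpi 0.0252% and 0.144%. The order depended on the spots used. With a summed myonuclei theta of 0.4 to 0.6 the pooled shares were 0.0386% in member and 0.0109% in comparison spots at 2 dpi, 0.201% and 0.0495% at 5 dpi, and 0.0251% and 0.0926% at 7 dpi. With 5000 to 10000 UMIs they were 0.0201% and 0.0432% at 2 dpi. At 5 dpi 94.9% of member and 85.4% of comparison spots had any hemoglobin transcript. Only at 7 dpi was the pooled share lower in member spots in all 3 of these sets of spots, with 0.0339% and 0.302% at 5000 to 10000 UMIs.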

How the data were processed

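The 3 sections were assigned to 2, 5 and 7 dpi by the treatment in the labels. Per the submitters' processing notes and the study's methods, the authors aligned reads to mm10 with Space Ranger 1.0 and handled them in Seurat 3.2.1. The authors deposited whole-number UMI and gene counts per spot, without normalization, and the percent of UMIs from mitochondrial, ribosomal protein and hemoglobin genes. The deposited theta values are fractions that sum to 1 over 27 cell types, which the authors estimated with BayesPrism from a single-cell reference and marker genes that left out mitochondrial and ribosomal protein genes. Fewer types are described for the reference in the methods, and which version of it and of the gene list gave the deposited values is not known. Theta is a fraction of transcripts, not of cells. The image alignments were not used here, and barcodes carried no positions, so no map was drawn. Section totals were 5710385, 10803761 and 14734531 UMIs, and spots had 1003 to 48442. No spot was filtered here and no doublet caller was run. The lowest counts among the deposited spots of the 2, 5 and 7 dpi sections were 1003, 1088 and 1059 UMIs. For genes they were 512, 502 and 504. Whether the authors had removed spots with fewer is not known.

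Member spots, cell type lists and limits were chosen with earlier results of these data known. Means over spots, with equal weight, were compared as ratios within a section, on theta as deposited and rescaled without the 2 myonuclei types. Patrolling monocytes stayed in the rescaled sum. No test was made. Types given with values had a mean of at least 0.01 in either class and a 2-fold difference, together with all monocyte, macrophage and dendritic types, myonuclei and progenitors. Others are given by range or count, or were named after their values were seen. Alternatives were other limits, medians, UMI weights, depth ranges and folds. Spots with a summed myonuclei theta of 0.4 to 0.6, UMIs without mitochondrial transcripts and ribosomal protein transcripts per non-mitochondrial UMI were chosen after seeing the data. A ratio was taken as unmoved within a factor of 1.25, a count within 1.5, and a share within its interval. Scripts were tested on simulated data and used Python 3.11.15, numpy 2.4.6, pandas 2.3.3, scipy 1.17.1 and matplotlib 3.10.9.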

Additional observations from a re-analysis of the deposited data

Results flagged for a closer look

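Of the 26 other cell types, 10 had a mean theta ratio of member over comparison spots above 1 in at least 1 section and below 1 in another. For 3 of them the ratio passed the factor for unmoved ratios in each direction and was at least 2-fold from 1 in some section. Stem-like FAPs had ratios of 3.29, 1.20 and 0.550 in the 2, 5 and 7 dpi sections. Stem-like endothelial cells had ratios of 2.61, 0.765 and 1.13 at 2, 5 and 7 dpi. Neural cells had ratios of 1.58, 0.404 and 0.120 in the same order, and 2.09, 0.931 and 0.580 by medians. With a summed myonuclei theta of 0.4 to 0.6, neural cells had 0.688, 0.330 and 0.198, all below 1. Stem-like FAPs had 1.55, 1.52 and 0.516 there, and stem-like endothelial cells 0.706, 0.815 and 1.03. After rescaling without myonuclei the ratios of all these types were below 1. They were 0.818, 0.409 and 0.284 for stem-like FAPs, 0.551, 0.206 and 0.475 for stem-like endothelial cells, and 0.353, 0.157 and 0.112 for neural cells. The rescaled sum kept patrolling monocytes, which lowers these rescaled ratios by construction. Spots of a section are not replicates and each time point had 1 section, so the difference between sections was not tested.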

How the results depend on the processing

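Each time point had 1 section, so nothing here measures the spread between animals, and the small theta values of shallow spots are the least certain. No paired analysis was possible because each time point had 1 section and no test was made. Of 144 alternative values for shares, counts of types and transcript measures, 92 stayed within their limits, 52 moved and 0 turned their direction. Of 618 alternative ratios of single types, 369 stayed, 226 moved and 23 of those at least 2-fold different turned their direction. The cause was not tested, except that a limit or a denominator sets a share by construction.

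With a minimum theta of 0.01, 0.05 or 0.1, the share of member spots at 2 dpi was 48.1%, 34.9% or 28.1%, at 5 dpi 12.6%, 0.536% or 0.429%, and at 7 dpi 16.1%, 0.725% or 0%. With theta rescaled without myonuclei it was 82.4%, 38.0% and 34.3% at 2, 5 and 7 dpi. At 2 dpi it was 36.1% in spots with at least 3000 UMIs and 35.4% in spots with 5000 to 10000 UMIs. The share of 2 dpi spots from 0.01 to under 0.05 was 10.8% with at least 3000 UMIs and 43.1% with rescaled theta.

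Rescaling gave 2, 1 and 1 types at least 2-fold higher at 2, 5 and 7 dpi and 7, 8 and 8 at least 2-fold lower. Patrolling monocytes stayed in the rescaled sum, which lowers the rescaled ratios of the other types by construction. Spots with a summed myonuclei theta of 0.4 to 0.6 were a range chosen after seeing the data. In them 3, 0 and 0 types were at least 2-fold higher at 2, 5 and 7 dpi. In the same order, 3, 2 and 1 types were at least 2-fold lower, and those at 5 dpi were type IIx myonuclei and neural cells. At 1.5-fold, 2 types were lower at 2 dpi, 4 were lower at 5 dpi and 9 were higher at 7 dpi. At 3-fold, 2 types were higher and 1 lower at 5 dpi, and 0 were higher at 7 dpi. The 5 dpi count of lower types was 1 by medians, by UMI-weighted means, with at least 3000 UMIs and with 5000 to 10000 UMIs, and 7 with a minimum of 0.05, which left 5 member spots. At 7 dpi, 5 types were higher with a minimum of 0.05 and 5 with comparison spots under 0.005, and 1 was lower by medians.

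Ratios that turned below 1 at 2 dpi after rescaling were those of quiescent MuSCs (0.658), committed myoblasts (0.930), fusing myocytes (0.879), dendritic cells (0.736), neutrophils (0.786), B cells (0.617), pro-remodeling FAPs (0.620), stem-like FAPs (0.818) and stem-like endothelial cells (0.551). At 5 dpi they were B cells (0.791), T cells (0.791), adipogenic FAPs (0.764) and tenocytes (0.825), and tenocytes also with a minimum of 0.05 (0.412). With a summed myonuclei theta of 0.4 to 0.6, which left 17 comparison spots at 2 dpi, they were fusing myocytes (0.503), inflammatory monocytes (0.568), dendritic cells (0.877), pro-remodeling FAPs (0.710) and stem-like endothelial cells (0.706) at 2 dpi, and Cx3cr1-hi M2 macrophages (0.852), dendritic cells (0.696), B cells (0.864) and tenocytes (0.742) at 5 dpi.

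In the same myonuclei range the mitochondrial difference was -8.01, -0.368 and -1.42 percentage points and the ribosomal protein difference 1.35, 0.804 and 0.665 points at 2, 5 and 7 dpi. The ratio of median UMIs at 2 dpi was 0.849 with 5000 to 10000 UMIs and 0.738 without mitochondrial transcripts. With a minimum of 0.05 at 5 dpi the ribosomal protein difference was 9.39 points and the UMI ratio 1.35. With comparison spots under 0.005 the mitochondrial difference at 7 dpi was -11.4 points.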

Other observations

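The same barcode marks the same array position in each capture area, so positions can be compared between sections although their coordinates are not known. The 2 and 5 dpi sections had 568 positions in common, of which 309 were member spots at 2 dpi and 15 at 5 dpi, and 13 were member spots in both. The 2 and 7 dpi sections had 739 in common, with 350 and 43 member spots and 36 in both. The 5 and 7 dpi sections had 593 in common, with 14 and 35 member spots and 0 in both. Member spots were 42.4%, 4.18% and 4.97% of all spots at 2, 5 and 7 dpi, so the later sections had few that could coincide. Sections were placed on the array independently, and whether these counts differ from those of unrelated positions was not tested. No overlap, nor the lack of one, is read here as a result about positions.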
